A study of Mus musculus with 36 samples.

Results

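Macrophage and myeloid identity genes were examined for K4me3 and K27me3 in whole pancreas, as a trace of the immune cells that the tissue contains beside its acinar cells. The set held 10 genes, picked by name as markers of these cells, of 20807 autosomal protein-coding genes of the GENCODE annotation. They were Spi1, Csf1r, Adgre1, Cd68, Itgam, Cd14, Mrc1, Ptprc, Lyz2 and Cd163. The tissue came from 6 mice aged 2 to 4 months, 22 days after the first tamoxifen gavage, with 3 mice of each of 2 genotypes. Wildtype mice are called WT, and the control group of the study held C57BL/6 mice and mice with the Mist1creERT allele alone. Mist1creERT/+EZH2[delta]SET mice, called EZ, lose the catalytic SET domain of EZH2. Each mouse is named by its genotype and replicate number, so that WT2 is wildtype replicate 2. The Mist1 promoter drives recombination in acinar cells of the pancreas, and recombination in immune cells was not measured here.

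K4me3 marks the start sites of genes that are transcribed or ready to be, and K27me3, which EZH2 as part of Polycomb repressive complex 2 deposits, marks silenced genes. Macrophages take up dead cells and microbes. Their identity is set by the transcription factor PU.1, the product of Spi1, which activates the receptor for colony-stimulating factor 1, the product of Csf1r. In whole tissue a mark at such a gene can come from the immune cells or from the many other cells, and a peak reports neither how many cells carry it nor which. A change in the number of cells of a type and a change in the mark within those cells cannot be told apart in these lists.

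The deposited data were 1 list of peak positions per mouse and mark. A gene was called when a peak overlapped the stretch within 3 kb of any of its transcription start sites (TSSs) by at least 1 bp, and the share of those bases that peaks covered was the value compared. The same share was taken over the gene body. K4me3 lists held 17400 to 25886 peaks and called 61.8% to 64.1% of all genes. K27me3 lists held 21420 to 31274 peaks and called 9.03% to 22.9%. The lists hold no read counts, so depth is unknown. All 12 acinar markers, such as digestive enzyme genes, had K4me3 in all 6 mice, as had 58.8% of all genes. Of 8 neuron and liver genes, 3 were also called in all 6, so such a call is a weak check of the tissue.

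WT2 stood apart from the other mice. Of 11 lymphocyte markers, which included the T cell receptor component Cd3e and the B cell genes Cd79a and Ms4a1, 9 had K4me3 in WT2 and 0 or 1 in each of the other 5 mice. Cd3e had 22.5% of its TSS stretch covered in WT2 and 0 in every other mouse, and Cd79a had 51.8% and 0. WT2 had the fewest peaks of both marks, and its K27me3 called 22.9% of genes against 9.03% to 13% in the other 5 mice. It had K27me3 over 5 of the 12 acinar markers where the others had 0, and K4me3 at 3 of 6 duct markers where the others had 6. Of its autosomal K4me3 peaks, 12.2% overlapped a K27me3 peak, against 0.686% to 1.87% elsewhere. The labels do not say whether the dissected tissue held lymphoid tissue, and the part of such tissue in the WT2 values at the identity genes was not tested. The main comparisons of the members are therefore also given without WT2.

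K4me3 at the 10 identity genes was sparse. The number of the 10 that were called was 2, 5 and 2 in WT1 to WT3 and 2, 3 and 2 in EZ1 to EZ3. Cd14 and Cd68 were called in all 6 mice, which was the case for 58.8% of all genes. Csf1r, Adgre1, Itgam, Mrc1 and Lyz2 were called in none, against 32.7% of all genes. Ptprc was called in WT2 and EZ2, and Spi1 and Cd163 were called in WT2 alone. The mean number called differed by -0.667 between EZ and WT, and the genotypes overlapped. Without WT2 the difference was 0.333. The mean covered share over the 10 genes was 8.79% in WT2, 4.22% in EZ2 and 3.49% to 3.77% in the other 4 mice.

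**Figure D1:**
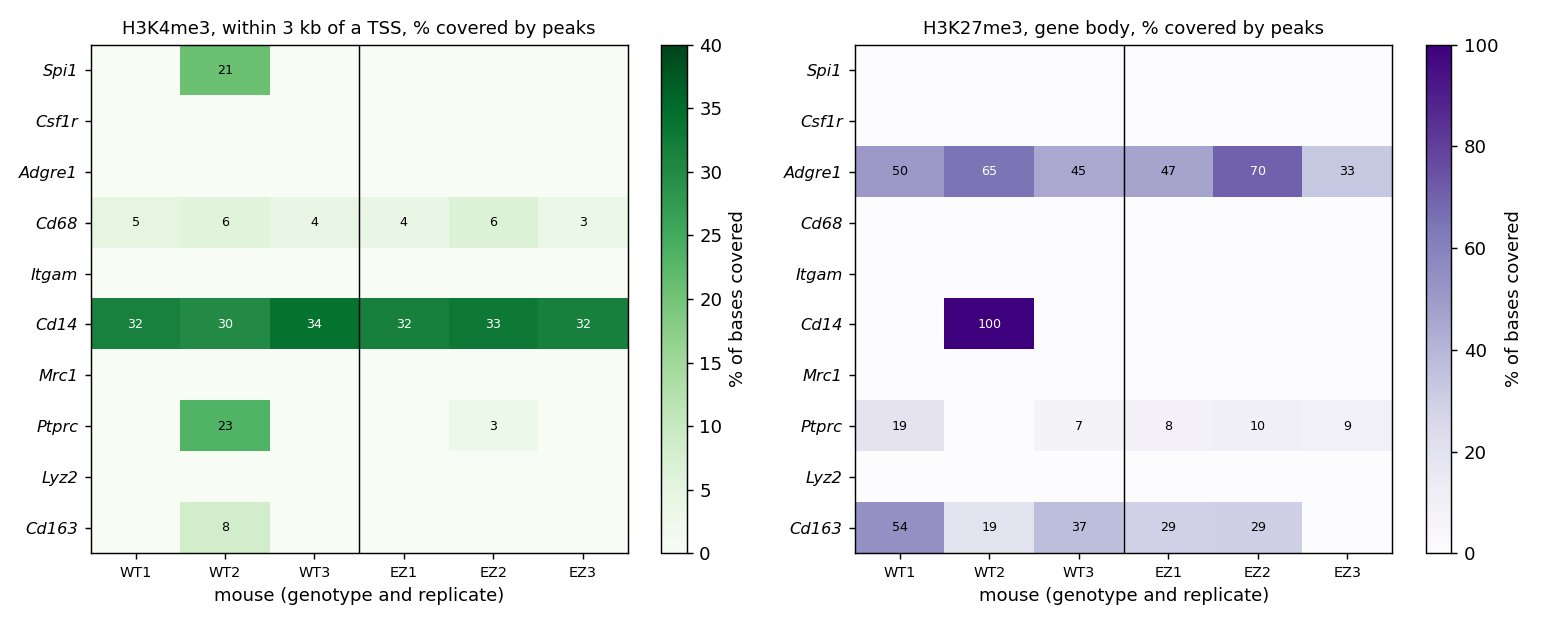
Share of bases covered by peaks at the 10 identity genes (rows) in the 6 mice (columns, 3 per genotype), for K4me3 within 3 kb of a TSS on the left and K27me3 over the gene body on the right. Numbers in the cells are rounded percentages, and cells without a number are 0. K4me3 within 3 kb of a TSS was present at Cd14 and Cd68 in every mouse and at Spi1 and Cd163 in WT2 only. At Cd68 it came from peaks over the TSS of the neighbouring Mpdu1. K27me3 over the gene body was present at Adgre1 in every mouse.

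Spi1 encodes PU.1 (chr2:91082390-91115756, plus strand, mm10). K4me3 covered 20.7% of its TSS stretch in WT2 and 0 in the other 5 mice. In WT2 a peak of 1983 bp ran from 14.1 to 16 kb downstream of the annotated 5′ end and covered 1 of the gene's 4 annotated TSSs. A second peak of WT2, of 641 bp, ran from 0.583 to 1.22 kb. At the other end of the gene, near 33 kb, a peak of 754 to 818 bp was called in WT1, WT3 and all EZ mice and not in WT2. The 5 mice shared 710 bp of it, from chr2:91115157-91115866, and it covered no protein-coding TSS. The peak near the 5′ end covered no annotated TSS, so the only Spi1 TSS with K4me3 was an internal one. WT2 was also the mouse in which most lymphocyte markers were called, and PU.1 is expressed in B cells as well as in myeloid cells. How much of the Spi1 signal came from either lineage was not tested.

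Cd163, a scavenger receptor for haemoglobin found on tissue macrophages, also had K4me3 in WT2 alone (chr6:124304656-124330527, plus strand). K4me3 covered 8.13% of its TSS stretch. The peak was 979 bp wide, wider than 22.7% of the peaks in that library, and lay from 16.7 to 17.7 kb downstream of the 5′ end. It covered no annotated TSS, and no mouse had K4me3 at the 5′ end itself. Of all genes, 282 were called in WT2 and in no other mouse, or 1.36%, and 2 of the 10 members were among them. The corresponding numbers of genes for the other 5 mice were 27 to 59. The 282 included 8 of the 11 lymphocyte markers.

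Ptprc encodes CD45, the tyrosine phosphatase on the surface of nearly all white blood cells (chr1:138062861-138175708, minus strand). K4me3 covered 23.4% of its TSS stretch in WT2 and 2.82% in EZ2, and 0 in the other 4 mice. The peak at its 5′ end was 11083 bp wide in WT2, wider than 99.9% of the peaks in that library, and covered 9 of the 12 annotated TSSs. In EZ2 the peak had 501 bp, the narrowest width in the lists, and covered none. Ptprc is expressed in lymphocytes and myeloid cells alike, and their shares in this signal were not tested. EZ averaged 0.94% ± 1.63 and WT 7.81% ± 13.5 (SD, n = 3 each), a difference of -6.87 percentage points with an exact permutation p of 1. Without WT2 the difference was 0.94 points, so that its sign rested on that mouse.

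Inside Ptprc a second K4me3 peak was seen near 39 kb from the 5′ end. It was called in WT2, EZ1 and EZ2, and WT1, WT3 and EZ3 lacked it. The peak was 3314 bp wide in WT2, 880 bp in EZ1 and 951 bp in EZ2. The 3 mice shared the 789 bp from chr1:138136244-138137032, of which the middle 300 bases touched no annotated Ptprc exon. EZ1 had this internal peak with no K4me3 within 3 kb of a Ptprc TSS. WT2 had 5 further peaks between 13 and 51.1 kb from the 5′ end, which no other mouse had.

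The sequences of these places show how unlike they are. Shown are the bases before the RefSeq start of Ptprc, Lyz2 and Cd163, together with the middle of the internal peaks of Ptprc and Cd163. The Ptprc bases before that start lay in the K4me3 peak of WT2 and outside that of EZ2. They are downstream of the 5′ end of the gene used above. Lyz2 had K4me3 in no mouse. The enzyme lysozyme, the product of Lyz2, is among the most abundant proteins of macrophages. Promoters are from the RefSeq table of build GRCm38.p6, in which 6 of the 10 members had an entry (Spi1, Csf1r, Adgre1 and Cd14 had none), and exonic bases are left out. Peaks were read from the mm10 genome. All run 5′ to 3′ on the strand of the gene, and capitals mark AGGAAG or its complement CTTCCT, a form of the core that PU.1 and other ETS factors bind.
Ptprc promoter, chr1:138175307-138175555, strand minus: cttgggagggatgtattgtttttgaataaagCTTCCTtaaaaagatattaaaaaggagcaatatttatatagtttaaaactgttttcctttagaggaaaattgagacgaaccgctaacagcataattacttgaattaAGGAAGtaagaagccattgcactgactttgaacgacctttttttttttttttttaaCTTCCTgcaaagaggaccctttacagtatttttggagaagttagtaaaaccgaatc
Lyz2 promoter, chr10:117282322-117282522, strand minus: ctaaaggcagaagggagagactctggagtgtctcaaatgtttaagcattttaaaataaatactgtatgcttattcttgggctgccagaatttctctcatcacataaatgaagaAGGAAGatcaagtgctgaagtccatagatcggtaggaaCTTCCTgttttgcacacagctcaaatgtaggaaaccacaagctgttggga
Cd163 promoter, chr6:124304401-124304650, strand plus: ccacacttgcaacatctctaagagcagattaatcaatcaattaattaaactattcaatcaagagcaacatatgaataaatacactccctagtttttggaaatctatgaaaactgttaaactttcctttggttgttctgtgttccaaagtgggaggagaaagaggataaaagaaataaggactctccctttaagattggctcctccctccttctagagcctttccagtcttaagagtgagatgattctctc
Ptprc internal peak, chr1:138136488-138136787, strand minus: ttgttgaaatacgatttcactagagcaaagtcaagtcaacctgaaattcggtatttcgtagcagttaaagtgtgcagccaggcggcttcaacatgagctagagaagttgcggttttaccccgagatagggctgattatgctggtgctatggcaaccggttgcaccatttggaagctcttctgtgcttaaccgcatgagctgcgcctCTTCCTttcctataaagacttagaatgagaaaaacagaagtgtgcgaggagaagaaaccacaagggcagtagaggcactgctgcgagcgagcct
Cd163 internal peak, chr6:124321727-124322026, strand plus: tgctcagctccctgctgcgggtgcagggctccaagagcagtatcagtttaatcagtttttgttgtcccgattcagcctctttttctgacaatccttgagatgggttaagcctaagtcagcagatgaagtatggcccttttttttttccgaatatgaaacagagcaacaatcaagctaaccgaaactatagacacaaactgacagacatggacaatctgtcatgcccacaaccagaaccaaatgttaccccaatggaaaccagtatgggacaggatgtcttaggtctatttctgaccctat
The motif occurred 3 times before Ptprc, 2 times before Lyz2 and in none of the 250 bases before Cd163. Over all 32851 RefSeq promoters of 250 bases, 29.5% held it on either strand, and 4 of the 6 member promoters did. Ptprc had 2 entries, of which only the more upstream was counted. The member promoters held 0 to 6 CpG dinucleotides, against a median of 6 in all promoters, with 4 before Ptprc, 1 before Lyz2 and 0 before Cd163. The Ptprc internal peak held 12 CpGs in 300 bases and 1 motif, and the Cd163 internal peak held 4 and no motif. The middle 300 bases of 16912 K4me3 peaks of WT2 had a median of 15 CpGs, and 32.9% held the motif. A match is a run of letters and was not tested for binding.

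**Figure D2:**
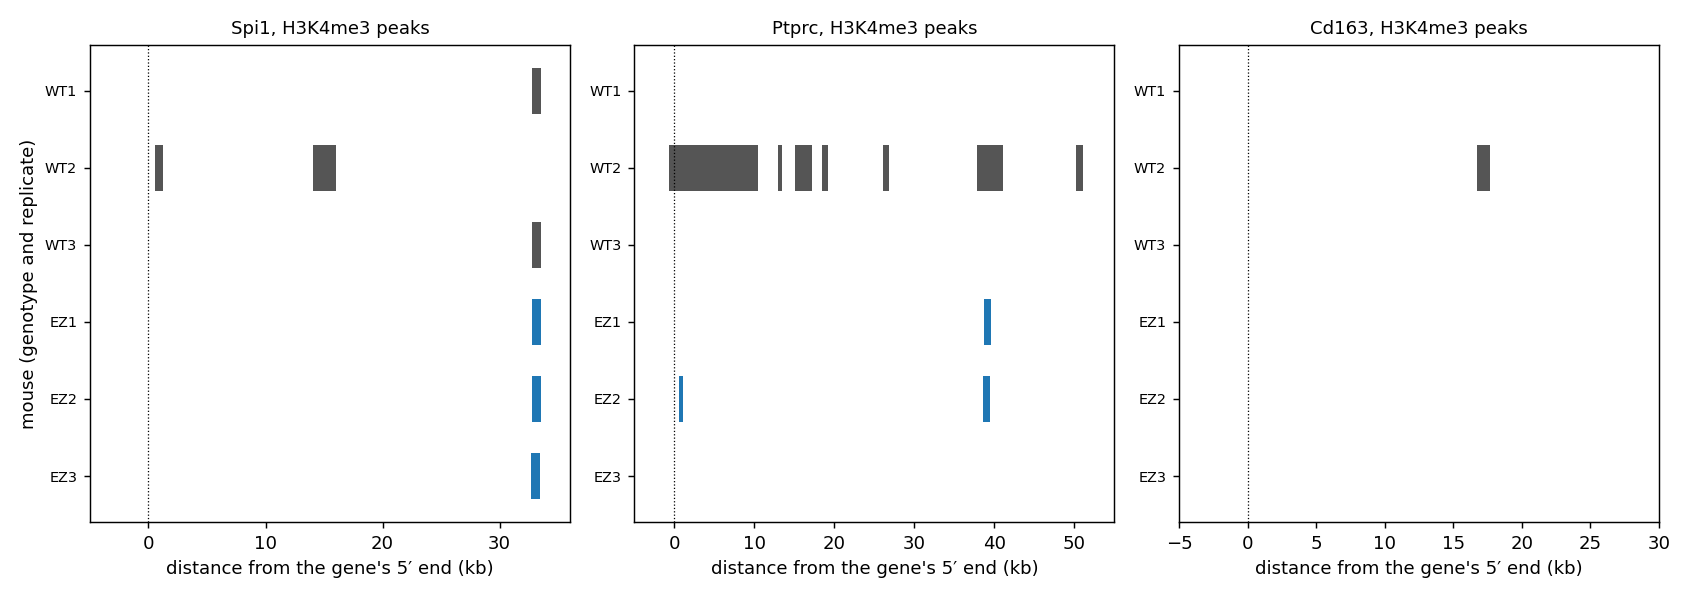
K4me3 peaks along Spi1, Ptprc and Cd163 in each mouse (rows), drawn as bars by their distance in kb from the 5′ end of the gene, in the direction of transcription. Colours mark the 2 genotypes. WT2 had peaks at places where most other mice had none, while the peaks near 33 kb of Spi1 and 39 kb of Ptprc recurred in 5 and 3 mice.

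The other 3 members with K4me3 behaved differently. Mrc1, the macrophage mannose receptor, had none within 3 kb of a TSS. Inside the gene, WT2 had a peak of 842 bp near 15 kb from the 5′ end, and WT1 and EZ3 had peaks of 501 and 643 bp near 66 kb. Cd68, a lysosomal glycoprotein of macrophages, was called in all 6 mice. The covered share of its stretch was 4.69%, 5.71% and 3.68% in WT1 to WT3 and 3.74%, 6.45% and 3.38% in EZ1 to EZ3. All 6 peaks lay downstream of the gene and covered the TSS of the neighbouring Mpdu1, a gene of glycan synthesis, and none covered a TSS of Cd68. The call at Cd68 thus belonged to a neighbour's start. The genotypes overlapped at Cd68, with a difference of -0.17 points between EZ and WT (exact permutation test, p = 0.9, n = 3 each) and of 0.339 points without WT2.

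Cd14, the coreceptor for bacterial lipopolysaccharide (chr18:36725067-36726798, minus strand), was the only member with K4me3 over its own TSSs in every mouse. The peaks were 1816 to 2062 bp wide, began between -0.357 and -0.211 kb from the 5′ end, which is upstream of it, and covered both annotated TSSs. The covered share of the TSS stretch was 31.5%, 30% and 34% in WT1 to WT3 and 31.6%, 32.9% and 31.6% in EZ1 to EZ3. These shares exceeded those of 82.1% to 84.2% of all genes in their library. All EZ mice lay within the range of WT. EZ averaged 32% ± 0.762 and WT 31.8% ± 2.05 (SD, n = 3 each), a difference of 0.176 points for which the exact permutation test gave p = 0.8. It was -0.764 points without WT2 and -0.264 without EZ2, so its sign rested on single mice. Over all 14008 genes with a K4me3 peak the median difference was 0.668 points. Without WT2 the median was 0.141 points, over the 13726 genes that then had a peak.

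**Figure D3:**
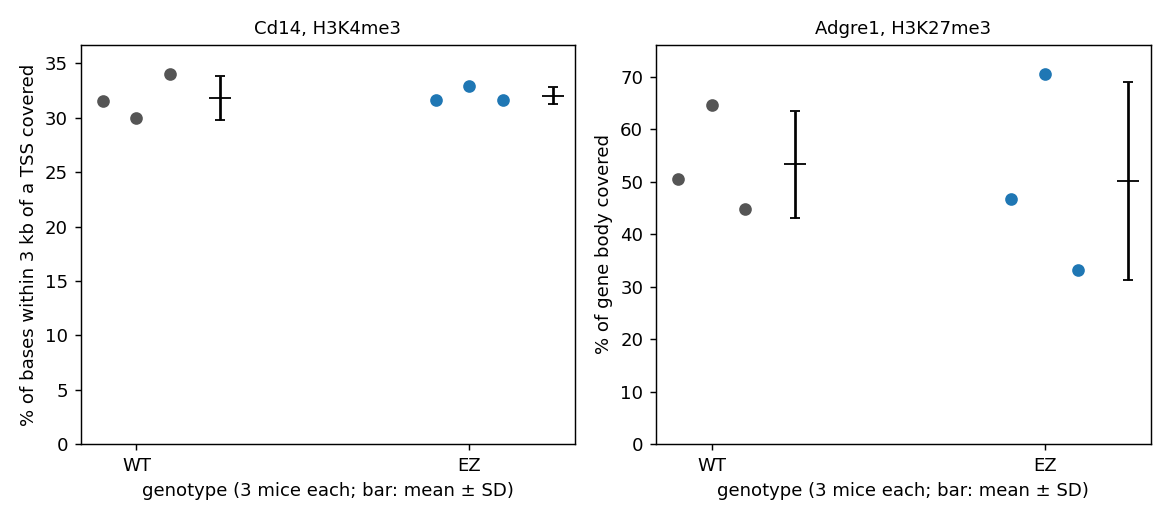
Covered share by genotype for Cd14 K4me3 within 3 kb of a TSS and for Adgre1 K27me3 over the gene body. Points are mice and bars the mean ± SD of 3 mice. For Cd14 the means were 31.8% in WT and 32% in EZ, and for Adgre1 the EZ mice spanned 33.2% to 70.5%, beyond the range of WT on both sides.

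No member had K4me3 or K27me3 coverage that separated the EZ from the WT mice, over the TSS stretch or over the gene body. For K4me3 over the TSS stretch, 9.19% of the genes tested were higher in all EZ than in all WT mice and 2.15% were lower, and 0 of the 5 members with a peak were in either class. For K27me3 over the TSS stretch these shares were 2.5% and 0.324%, with 3 members tested. Over gene bodies they were 10.4% and 2.42% for K4me3, with 5 members tested, and 4.77% and 0.322% for K27me3, with 4 tested. With so few members a count of 0 is near what such shares give, and it says nothing particular about them. Without WT2, 2 WT mice are left, which lets more genes separate, and fewer genes have a peak. The shares over the TSS stretch were then 12.7% and 10.2% for K4me3 and 11.6% and 3.27% for K27me3. Over gene bodies they were 13.6% and 10.4% for K4me3 and 14.7% and 3.52% for K27me3. With 3 mice a side no exact permutation test can pass 0.05, the smallest p being 0.1. For the members with a peak p ran from 0.2 to 1 by the exact test over both marks and both regions, and all of these became 1 after Benjamini-Hochberg adjustment over all genes tested.

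K27me3 at the identity genes recurred at 3 members, Adgre1, Cd163 and Ptprc, and was seen in a single mouse at Cd14. Within 3 kb of a TSS, 2, 2 and 2 of the 10 were called in WT1 to WT3 and 2, 2 and 1 in EZ1 to EZ3. No member was called in all 6 mice, as were 3.79% of all genes. In none were called Spi1, Csf1r, Adgre1, Cd68, Itgam, Mrc1 and Lyz2, against 68.9% of all genes. The mean number differed by -0.333 between EZ and WT, which is less than 1 gene, and the genotypes overlapped. Without WT2 it was -0.333 too. Csf1r, Itgam, the integrin chain CD11b, and Lyz2 had no peak of either mark in TSS stretch or gene body in any mouse.

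Adgre1, which encodes the macrophage marker F4/80 (chr17:57358691-57483527, plus strand), lay in broad K27me3 in every mouse. Peaks covered 50.5%, 64.6% and 44.9% of its 125 kb body in WT1 to WT3 and 46.8%, 70.5% and 33.2% in EZ1 to EZ3. These values exceeded those of 93.3% to 96.3% of all genes in their library. From 17.8 to 38.7 kb downstream of the 5′ end every mouse had K27me3, and again from 105 to 112 kb. The first 3 kb were free of the mark in all 6 mice, and the nearest peak to the start, in EZ2, began 3.38 kb downstream of it.

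The EZ mice held both the highest and the lowest value for Adgre1 and so did not lie to one side of WT. EZ averaged 50.2% ± 18.8 and WT 53.3% ± 10.1 (SD, n = 3 each). The difference was -3.15 points, and the exact permutation test gave p = 0.9. Over all 6210 genes with K27me3 in their bodies the median difference was -1.05 points. Without WT2 the median was 4.11 points, over the 4115 genes that then had it. Without WT2 the difference at Adgre1 was 2.48 points, and it was -13.3 points without EZ2 and 5.32 points without EZ3, so its sign rested on single mice of either genotype.

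**Figure D4:**
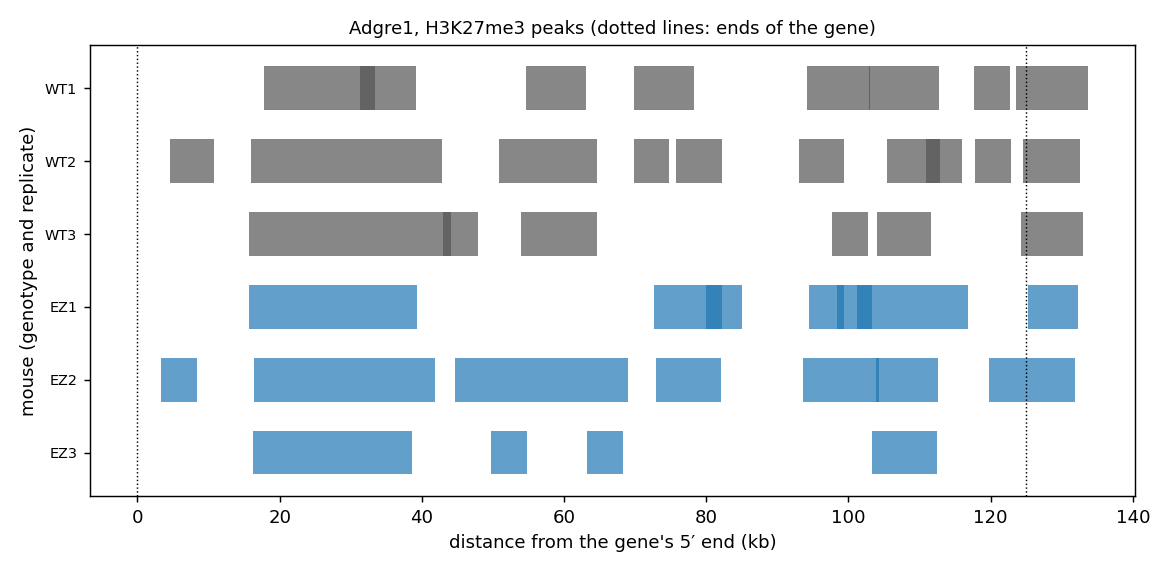
K27me3 peaks along Adgre1 in each mouse (rows), as bars by distance in kb from the 5′ end, with dotted lines at both ends of the gene. Darker stretches are places where peaks of 1 list overlap. All 6 mice have a broad block between 17.8 and 38.7 kb, and none has a peak over the first 3 kb.

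Cd163 and Ptprc carried K27me3 over parts of their bodies. At Cd163, K27me3 covered 54.2%, 19.3% and 36.8% of the gene body in WT1 to WT3 and 29%, 29.3% and 0 in EZ1 to EZ3. WT1 to WT3 and EZ2 shared the stretch from 1.67 to 4.52 kb downstream of the 5′ end, and in WT1, WT3 and EZ2 the peak there covered 2 annotated TSSs. In EZ1 the mark lay in the 3′ part of the gene only, from 18.4 kb onward. EZ3 had no K27me3 at Cd163. EZ averaged 19.4% ± 16.8 and WT 36.8% ± 17.4 (SD, n = 3 each), a difference of -17.3 points with an exact permutation p of 0.4. Without WT2 it was -26.1 points, with both remaining WT mice above all EZ mice and an exact permutation p of 0.1, the smallest that 3 mice against 2 allow. Of all genes, 3.52% were lower in this way without WT2. Without WT1 it was -8.63 points and without EZ3 -7.63. When each library was reduced to its 21420 widest K27me3 peaks the difference was 1.43 points. Of the 9 K27me3 peaks at Cd163, 6 had 5001 bp, the narrowest width in the lists. WT2, the mouse with K4me3 at Cd163, had its K27me3 from 1.67 to 6.67 kb, apart from its K4me3 peak. In WT1 a K27me3 peak from 17.5 to 22.5 kb overlapped the place where WT2 had K4me3.

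At Ptprc, K27me3 lay far from the 5′ end, and the 5 mice other than WT2 shared the stretch from 61.6 to 69.5 kb downstream. The gene body coverage was 19% in WT1, 7.06% in WT3, and 8.39%, 10.5% and 9.11% in EZ1 to EZ3. It was 0 in WT2, the mouse with the broad K4me3 peak at the Ptprc start. Because some annotated TSSs lie inside the gene, the same peaks reached the TSS stretch, where they covered 12.9%, 0 and 9.34% in WT1 to WT3 and 12.1%, 26.8% and 13% in EZ1 to EZ3. Only the peak of EZ2, of 11794 bp, covered TSSs, 2 of the 12. The TSS stretch averaged 17.3% ± 8.21 in EZ and 7.4% ± 6.65 in WT (SD, n = 3 each), a difference of 9.93 points with an exact permutation p of 0.2. WT1 overlapped with EZ, and without WT2 the difference was 6.23 points. Over all 6479 genes with a K27me3 peak the median difference was -4.64 points. Without WT2 it was 6.5 points, over the 3941 genes that then had a peak. Mice and genes both changed, and how far the turn in sign rested on either was not tested.

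Cd14 had K27me3 in WT2 alone, where a peak of 14101 bp covered the whole gene together with its K4me3 peak. It was not seen in a second mouse. Without WT2 no mouse had both marks at the Cd14 start.

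Of the other myeloid genes, 72 in 4 lists, 27 had K4me3 in all 6 mice and 24 in none, against the 58.8% and 32.7% of all genes given above. In WT2 only were called 9, against 1.36% of all genes, and 4 more in WT2 and EZ2 only. The remaining 8 were called in other combinations of mice. Of 15 transcription factors of the lineage the same 12 were called in every mouse, among them Cebpa, Irf8 and Runx1. Batf3, Spic and Tfec were called in none. Csf1, the ligand of the Csf1r product, was called in all 6 mice, with 20% to 25.4% of its stretch covered. Of 32 surface receptors, 15 were called in WT2 and 8 to 12 in the other 5 mice, while K4me3 called 61.8% of all genes in WT2 and 63.4% to 64.1% in the others. Of 18 secreted and lysosomal genes, 12 were called in WT2 and 5 to 8 in the others.

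The names behind these counts were chosen after their values were seen. The protease Ctss, the NADPH oxidase subunits Ncf1 and Ncf4, Cd52 and the pore-forming Mpeg1 were called in WT2 only. Among receptors, the cytokine receptor Csf2rb, the costimulatory Cd86, the Fc receptor Fcgr2b and the purine receptor P2ry12 were called in WT2 only. The covered share in WT2 was 72.4% at Cd52, 32% at Ctss and 1.82% at Mpeg1. The integrins Itgb2 and Itga4, Laptm5 and Cd84 were called in WT2 and EZ2, the same 2 mice as Ptprc. At Itgb2 the covered share was 39.6% in WT2 and 10.5% in EZ2, and at Itga4 74.4% and 15.6%. Of all genes, 60 were called in WT2 and EZ2 alone, and the other pairs of mice shared 5 to 32 in this way. EZ2 had 1 of the 11 lymphocyte markers, as had EZ1 and EZ3.

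Other macrophage genes went the other way or were not marked. Cx3cr1, the fractalkine receptor of resident macrophages, was covered by 17% in WT1, 15.6% in WT3 and 9.54%, 8.27% and 12.9% in EZ1 to EZ3, and by 0 in WT2. C1qa, a chain of the complement protein C1q that tissue macrophages make, was covered by 8.35% in WT3 and by 11.3%, 8.35% and 11.8% in EZ1 to EZ3, and by 0 in WT1 and WT2. C1qc and Aif1 were called in none. Neutrophil and mast cell markers did not follow WT2, with 1 of 10 called in each of the 6 mice.

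**Figure D5:**
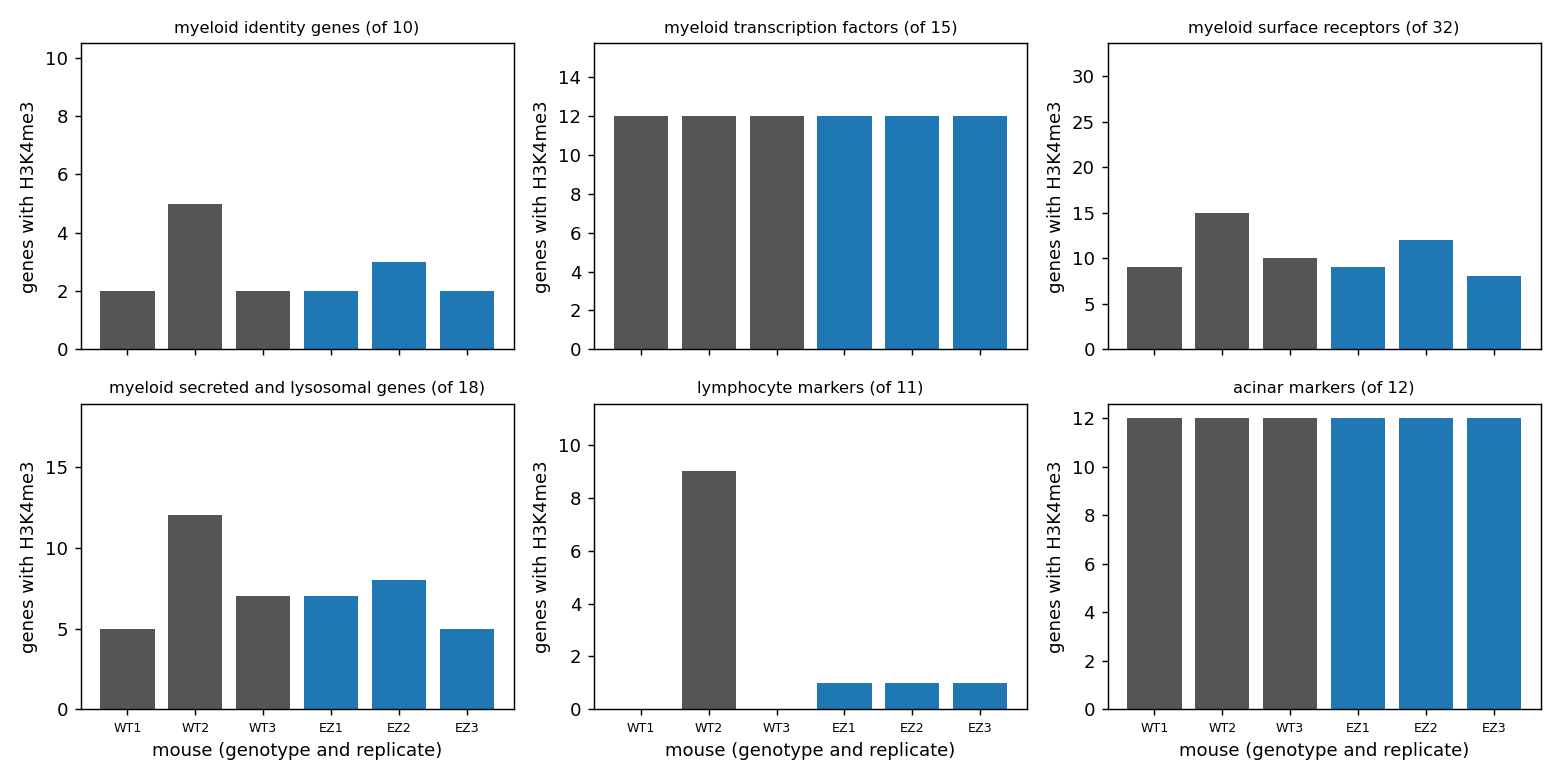
Number of genes with K4me3 within 3 kb of a TSS in each mouse, for the 10 identity genes, 3 other myeloid lists, lymphocyte markers and acinar markers. Each axis runs from 0 to just above the length of the list, and colours mark genotypes. WT2 is high in receptors, secreted genes and lymphocyte markers, and all mice are alike in transcription factors and acinar markers.

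Between EZ and WT, 2 of the 48 other myeloid genes with a K4me3 peak were higher in all EZ than in all WT mice and 0 were lower. Over all genes these shares were the 9.19% and 2.15% given above, so that 2 of 48 was not more than the background. Gfi1, a zinc finger repressor of blood cell development, was covered by 77.5%, 58% and 76.4% in WT1 to WT3 and 85.7%, 83.9% and 81% in EZ1 to EZ3. Il34, the second ligand of the Csf1r product, was covered by 4.22%, 0 and 3.82% in WT and 4.92%, 9.58% and 6.98% in EZ. WT2 held the lowest value at both genes, and the other WT mice lay below all EZ mice too.

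For K27me3, 1 of the 18 other myeloid genes with a peak was higher in all EZ than in all WT mice and 0 were lower, against the 2.5% and 0.324% of all genes. It was Cd84, a surface receptor of the SLAM family. Its covered share was 0, 0 and 50.6% in WT1 to WT3 and 54.2%, 87.6% and 65.1% in EZ1 to EZ3. Across all genes 0 had an adjusted p below 0.05 for either mark by the exact permutation test, and 0 had an unadjusted p below 0.05, which the test cannot give with 3 mice a side.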

How the data were processed

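K4me3 and K27me3 ChIP-Seq was performed on whole pancreas, and 6 mice, 3 WT and 3 EZ, were analysed. The other genotypes of the study and some genes are not reported here. The authors assessed reads with FastQC, aligned them to mm10 with bowtie2 and called peaks per mouse, unpooled, with HOMER findPeaks in histone mode against local background and input. Tool versions are not given in the sources used here. The deposited lists hold positions and a score that is 1 for every peak, with no counts, so depth and its precision are unknown. The input samples were not used here.

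Peaks were overlapped with autosomal protein-coding genes of GENCODE vM21 (GRCm38, the same build). Tests of covered shares were exact permutations, two-sided, of 3 mice against 3 (20 arrangements, smallest p 0.1), and p-values were Benjamini-Hochberg adjusted over all genes with a peak in the mice compared. They measure the spread between mice. The code was tested on simulated peaks. Named by rule were the 10 members and neighbours whose TSS a member's peak covered. Other names were chosen after seeing values. Members and lists were chosen with earlier results of these data known. Alternatives were other windows, gene ends, overlaps, peak widths and joins, equal numbers of widest peaks, medians, a replicate block and each mouse left out. Shares and medians over all genes without WT2 were added after seeing the data. Python 3.11.15, numpy 2.4.6 and matplotlib 3.10.9 were used.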

Additional observations from a re-analysis of the deposited data

How the results depend on the processing

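The number of members called for K4me3, EZ minus WT, moved by less than the spread between mice under every alternative run. WT2, with 5 called, made most of that spread. With each mouse left out the number lay between -1.17 and 0.333, and it was positive only without WT2. For K27me3 the number also moved by less than its spread, with 2 exceptions. It was -1 with only the 5′ end of each gene and 0.667 when the region was extended to 100 kb upstream. The call at Cd68 was lost with a window of 1 kb, and when 500 bp of the stretch had to be covered, since 206 to 393 bp were.

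With 3 mice a side or fewer no difference in covered share could pass 0.05 under any alternative run. These changed sign. With each mouse left out, Cd14 K4me3 lay between -0.764 and 1.26 points, negative without WT2 or EZ2 (-0.264). Ptprc K4me3 lay between -10.8 and 0.94, positive without WT2, and Adgre1 K27me3 between -13.3 and 5.32, positive without WT2 (2.48) or EZ3. Cd68 K4me3 lay between -1.13 and 0.402, positive without WT2 (0.339), EZ1 (0.222) or EZ3. Cd163 K27me3 was 1.43 with equal numbers of widest peaks. Ptprc K27me3 kept its sign in all 9 alternatives, from 5.19 to 13.1 points. The replicate block among them leaves a mean difference unchanged by construction, so it could not change a sign.

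The labels do not say that mice with the same replicate number share a litter or a day. The correlation of their deviations from the genotype means ran from 0.074 to 0.254 for K4me3 and from -0.165 to 0.044 for K27me3. With the replicate block the Cd14 difference was 0.176 points with an exact sign-flip p of 0.75. With 3 pairs that test gives no p under 0.25, so it could change no call. Of the 6 mice, 5 for K4me3 and 1 for K27me3 correlated best with the mouse of their own number, a hint from the data and not the design. Depth is unknown, so a gene without a peak may be marked below the level at which a peak was called.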
